A study of Homo sapiens with 9 samples.

Results

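The genes described here build the actin cytoskeleton and join it to membranes, adhesions and other filaments. They comprise 45 genes listed by name: the ERM family and its relative NF2, actins, crosslinkers, myosin II, tropomyosins and caldesmon, plakins and spectrins, adhesion proteins, factors of filament assembly and turnover with their kinases, and vimentin. A peak was counted for a gene when its midpoint lay on the gene's strand within its body on hg19. All 45 genes were found in the annotation, and 180 of the 8460 deposited peaks belonged to them, 66 of 3450 peaks with the miR-342-3p mimic and 114 of 5010 with the miR-342-5p mimic. The list of genes was drawn up with earlier results of these data known.

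MDA-MB-231HM is a highly metastatic derivative of the triple negative breast cancer line MDA-MB-231, labelled WT. Cells received 20 nM of a miRNA mimic, which was miR-342-3p, miR-342-5p or a negative control, with 3 libraries of each, and were crosslinked with UV light after 48 h. The labels do not say whether replicates were separate cultures. Ago2 was then immunoprecipitated and the RNA fragments bound to it were sequenced (Ago-HITS-CLIP). The 9 libraries were reduced by the authors to 2 peak lists, each comparing the merged libraries of a miR-342 mimic with the same negative control libraries. The score of a peak is described in the study as reads above background, and the lowest score in the lists was 5. No value per library was available, so there was no replicate error, the depth was unknown, and all intervals (95% CI, Wilson) and tests below cover counting error only. Scores were not compared between the lists, since their scaling to each other is not known. The cells received synthetic miRNA by transfection, and the lists hold no expression levels, so a gene without a peak cannot be told apart from a gene with little mRNA.

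Actin filaments are assembled from monomers by formins and the Arp2/3 complex, bundled by actinins, fascin and filamins, pulled by myosin II and capped or severed by other proteins. ERM proteins tie the filaments to the plasma membrane, spectrins form a mesh beneath it, and plakins are very large linkers between actin, microtubules and intermediate filaments. Breast cancer cells use this machinery to change shape and to move. A miRNA guides Ago to RNA mainly through its seed, bases 2 to 8 of the mature strand, and sites in 3′UTRs are the ones best known to lower mRNA and protein.

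The seeds of the mimics decide which letters to look for in a peak, so both mature strands are shown from RefSeq (GRCh38.p14), with the seed in capitals.

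miR-342-3p: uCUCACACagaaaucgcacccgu
miR-342-5p: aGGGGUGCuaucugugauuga

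The corresponding sites in RNA are, for miR-342-3p, the 8mer GUGUGAGA and the 7mers GUGUGAG (7mer-m8) and UGUGAGA (7mer-A1). For miR-342-5p the 8mer is GCACCCCA, the 7mer-m8 is GCACCCC and the 7mer-A1 is CACCCCA. The 6mers UGUGAG and CACCCC are the letters common to both 7mers. A site was counted when it lay no more than 50 nt from a summit and was read in the direction of the transcript. Sites under matched peaks of these genes, most of them among the highest-scoring, are shown next in 30 nt of hg19 each, written as RNA with the site in capitals. The first 5 lay under miR-342-3p peaks and the others under miR-342-5p peaks.

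DIAPH1 coding exon, 8mer (chr5:140908072-140908101, minus strand): uuggcugaguuGUGUGAGAaugacuauccc
ZYX coding exon, 7mer-m8 (chr7:143087053-143087082, plus strand): aaguguuacaaGUGUGAGgucagccauccc
FLNC 3′UTR, 7mer-m8 (chr7:128498927-128498956, plus strand): ugggugucuguGUGUGAGgucacccucaaa
TLN1 coding exon, 7mer-m8 (chr9:35698452-35698481, minus strand): accaacaaucuGUGUGAGgcagccaaugca
TPM4 5′UTR, 7mer-m8 (chr19:16191120-16191149, plus strand): augggugcgauGUGUGAGgaugaaauugca
SPTBN1 coding exon, 7mer-m8 (chr2:54858248-54858277, plus strand): cuggaguccgaGCACCCCgaccaggcccag
3′UTR of ACTN4, 8mer (chr19:39220653-39220682, plus strand): cccccugaaccGCACCCCAucccaccagcc
MACF1 3′UTR, 7mer-m8 (chr1:39951466-39951495, plus strand): acacugucuaaGCACCCCcaagccacuauc
FLNA coding exon, 7mer-A1 (chrX:153591113-153591142, minus strand): gagcuggcagcCACCCCAacaaggucaaag
EZR coding exon, 7mer-m8 (chr6:159188466-159188495, minus strand): uggugaugacaGCACCCCcgcccccaccac

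Peaks were found in 32 of the 45 genes. A miR-342-3p peak was present in 24 genes (53.3%) and a miR-342-5p peak in 25 (55.6%), while 11.8% of all 20163 protein-coding genes had a miR-342-3p peak and likewise 11.8% a miR-342-5p peak. Peaks of both mimics were present in 17 genes (37.8%), against 4.06% of protein-coding genes. The miR-342-3p mimic alone gave peaks in MYL6, TPM3, TPM4, VCL, VASP, CAPZB and ROCK1. The miR-342-5p mimic alone gave peaks in EZR, ACTB, ACTG1, ACTN4, FSCN1, LIMA1, DIAPH3 and PFN1. The 13 genes without a peak in either list were NF2, SYNPO, MYH10, MYL9, TPM1, CALD1, ENAH, WASL, WASF2, ARPC2, ARPC5, ROCK2 and VIM. The mRNA lengths of the groups overlapped, and the canonical mRNA had a median of 5359 nt (range 1217 to 13092) in the 13 genes without a peak and 4568.5 nt (708 to 24709) in the 32 with one. The median was 3833 nt over all protein-coding genes with a peak and 2889 nt over all protein-coding genes.

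**Figure D1:**
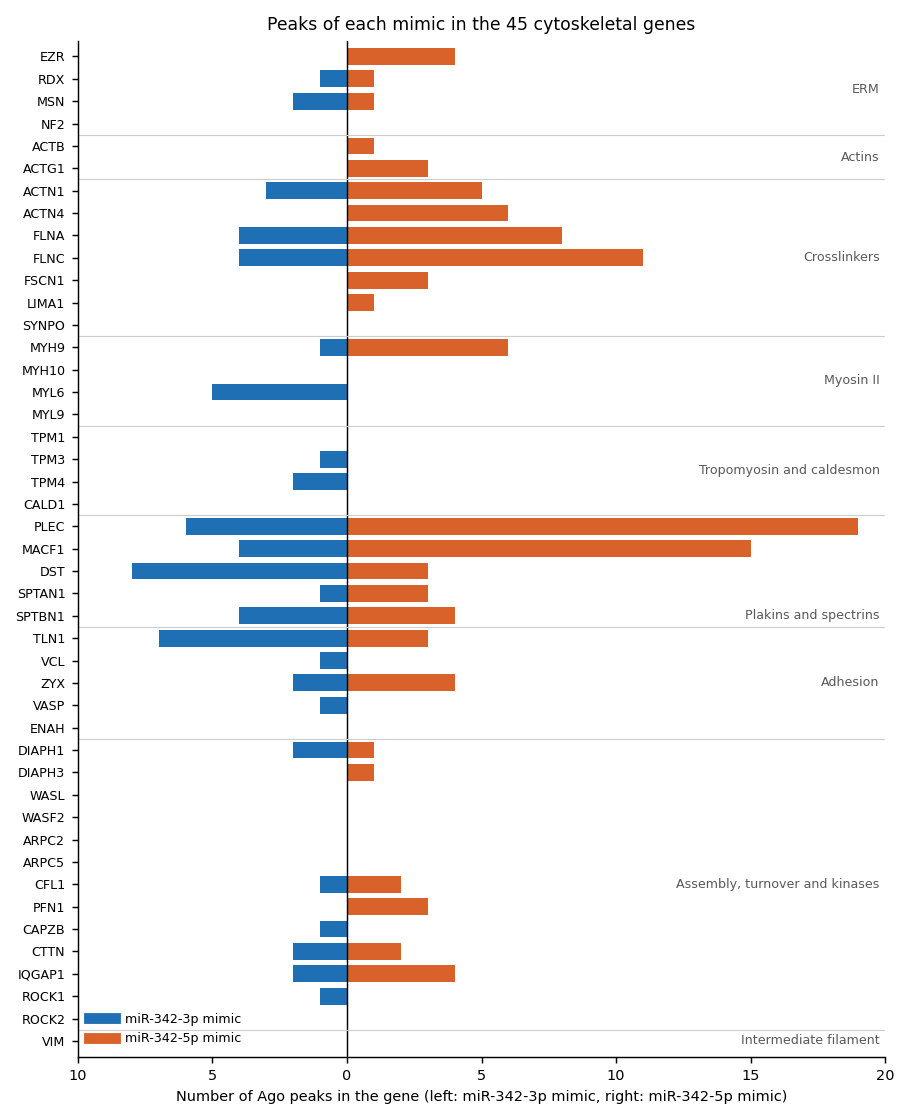
Number of Ago peaks in each of the 45 genes, grouped by role, with miR-342-3p peaks drawn to the left of 0 and miR-342-5p peaks to the right. The longest bars to the right are PLEC, MACF1 and FLNC (19, 15 and 11) and to the left DST and TLN1 (8 and 7), and 13 genes have no bar.

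Many of these genes held several peaks. Of 24 genes bound with miR-342-3p, 9 (37.5%) had exactly 1 peak, against 71.2% of all protein-coding genes with such a peak. For the miR-342-5p list, 6 of 25 (24%) had exactly 1, against 60.9%. All peaks of a gene, also those in introns, were divided by the length of its canonical mRNA. The median was then 0.421 peaks per kilobase for miR-342-3p in the genes described here and 0.31 in all bound genes. For miR-342-5p it was 0.616 against 0.402. Introns held 12.1% of the miR-342-3p and 10.5% of the miR-342-5p peaks of these genes, against 3.91% and 5.05% of the lists. A group of 9 long structural genes held most of the peaks. PLEC, MACF1, DST, SPTAN1, SPTBN1, FLNA, FLNC, MYH9 and TLN1 together had 39 of 66 miR-342-3p peaks (59.1%) and 72 of 114 miR-342-5p peaks (63.2%). Their canonical mRNAs were 7451 nt (MYH9) to 24709 nt (DST) long. Counting only peaks on that mRNA, they had 0.123 (MACF1) to 0.812 (TLN1) miR-342-3p peaks per kilobase. For miR-342-5p the range was 0.121 (DST) to 1.2 (FLNC). The part of length in these shares was not tested. Neighbouring peaks often nearly touched. When peaks with 10 nt or less between them were joined, 66 miR-342-3p peaks became 55 regions and 114 miR-342-5p peaks became 77.

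With miR-342-3p the median score was 27.5 over the 66 peaks and 24 over the whole list. With miR-342-5p it was 31 over the 114 peaks and 19 over the list. Scores above 50 were held by 16 miR-342-3p peaks (24.2%, against 24.1% of the list) and by 41 miR-342-5p peaks (36%, against 17%). The 10 highest miR-342-3p peaks comprised 8 in coding exons and 2 with a 7mer or 8mer site. Of the 10 highest miR-342-5p peaks, 6 lay in coding exons and 4 in 3′UTRs, and 4 had such a site.

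**Figure D2:**
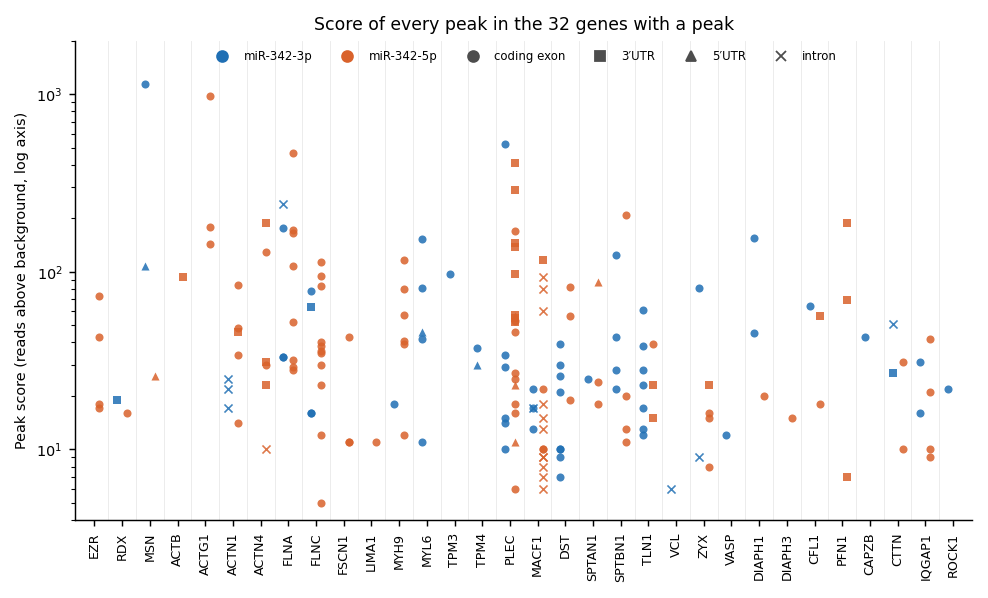
Score of each peak on a log axis for the 32 genes with a peak, coloured by mimic and shaped by location. MSN reached 1134 with miR-342-3p and ACTG1 reached 981 with miR-342-5p, and the squares that mark 3′UTRs are nearly all of the miR-342-5p colour.

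Within the ERM family, moesin had the highest-scoring miR-342-3p peak of the 45 genes. The MSN peak of miR-342-3p at chrX:64951702-64951778 scored 1134, the 6th highest of 3450 in that list. It lay in coding exon 6, 34.2% of the way along the coding sequence. A nearly identical copy of the 50 nt around its summit exists at 1 other place in the genome, and its part in the score was not tested. It had no site as defined above, but held GUGUGA, which matches bases 3 to 8 of miR-342-3p.

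MSN coding exon, match to bases 3 to 8 (chrX:64951741-64951770, plus strand): uggagauguaugGUGUGAacuacuucagca

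MSN also had peaks in its 5′UTR, with a score of 108 for miR-342-3p at chrX:64887680-64887720 and of 26 for miR-342-5p at chrX:64887551-64887603. These did not overlap, and neither had a site. Ezrin, a linker known from microvilli, had peaks with miR-342-5p only, all 4 of them coding. The highest, at chr6:159204552-159204609, scored 73 and had no site. Exon 5 held peaks that scored 43 (chr6:159206482-159206572) and 18 (chr6:159206429-159206480), also without a site. The remaining peak, at chr6:159188455-159188534, scored 17 and contained the GCACCCC shown above, 11 nt from its summit. Radixin had a 3′UTR peak with miR-342-3p that scored 19 (chr11:110101291-110101372) and a coding miR-342-5p peak with a score of 16 (chr11:110134685-110134755). The radixin 3′UTR peak lay on an alternating run of G and U of 31 nt, a sequence with 133 near-copies elsewhere, and had no seed site. NF2, which encodes the tumour suppressor merlin, had no peak.

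The actins were found in the miR-342-5p list only. Cytoplasmic gamma actin, ACTG1, had 3 coding peaks. The peak at chr17:79477877-79478036 in exon 5 scored 981, the 6th highest of 5010 in that list. The others scored 178 (chr17:79479258-79479331) and 144 (chr17:79478929-79479037), and none of the 3 had a 6mer, 7mer or 8mer. Beta actin, ACTB, had a 3′UTR peak that scored 94 (chr7:5567053-5567118) with a CACCCCA site 5 nt from the summit. Its sequence has 10 near-copies elsewhere in the genome.

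Crosslinkers carried 34 peaks with miR-342-5p and 11 with miR-342-3p. The filamins, which hold actin filaments in an orthogonal web, had the most. In FLNA the 8 miR-342-5p peaks scored 28 to 465 and all lay between 2.68% and 49.9% of the coding sequence. Its 3 coding miR-342-3p peaks scored 33, 33 and 176 and lay between 64.2% and 98.4%. The highest FLNA peak of miR-342-5p, at chrX:153596009-153596057, had no site, and neither did those with scores of 173 (chrX:153599313-153599489) and 166 (chrX:153588100-153588136). A further FLNA peak of miR-342-3p with a score of 240 (chrX:153594543-153594748) was placed in an intron by its midpoint and lay between miR-342-5p peaks, upstream of the other 3. This intron is 83 nt long, and 123 of the 206 nt of the peak lay in the exons on both sides of it. The FLNA coding peak of miR-342-3p that scored 176 lay at chrX:153583216-153583276 and had no site. In FLNC, the muscle filamin, 11 coding miR-342-5p peaks scored 5 to 113, and 4 had a 7mer within 50 nt of the summit. For the peak that scored 113 the 7mer lay outside the peak, 44 nt from its summit. The 11 peaks lay between 6.29% and 79.9% of the coding sequence. Its 3 coding miR-342-3p peaks scored 78, 16 and 16. FLNC was also the only gene with a seed-matched miR-342-3p peak in a 3′UTR, with a score of 63.

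The alpha-actinins, which bundle filaments into stress fibres, differed in their lists. ACTN4 had 6 peaks with miR-342-5p only. The highest scored 189, lay in the 3′UTR at chr19:39220514-39220832 and held 2 sites, 1 of them the 8mer GCACCCCA shown above. It was the only peak of the 45 genes with an 8mer in a 3′UTR. ACTN1 had 4 coding miR-342-5p peaks and 1 in the 3′UTR, with scores of 14 to 84 and no 7mer or 8mer. Its 3 miR-342-3p peaks adjoined each other in an intron (chr14:69365563-69366183), scored 17 to 25, and all held GUGUGAG within a stretch rich in alternating G and U. FSCN1, encoding the filopodial bundler fascin, had 3 adjoining coding peaks of 11, 11 and 43 with miR-342-5p. Each of them has 1 near-copy elsewhere in the genome. LIMA1 had 1 peak with a score of 11, and SYNPO had none.

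Myosin and tropomyosin genes together had 9 peaks with miR-342-3p and 6 with miR-342-5p. MYL6, the essential light chain of nonmuscle myosin II, had 5 miR-342-3p peaks with scores of 11, 42, 46, 81 and 152. The highest, at chr12:56554057-56554104 in coding exon 5, and the next, at chr12:56553405-56553514 in exon 3, had no site. The peak that scored 46 also lies within the gene MYL6B on the same strand and cannot be assigned to either. MYH9, the heavy chain of nonmuscle myosin IIA, had 6 coding miR-342-5p peaks with scores of 12 to 116 at 19.7% to 68.8% of the coding sequence and a coding miR-342-3p peak with a score of 18 at 84.5%. Of the 6, 1 had a 7mer-A1. TPM3 had a coding miR-342-3p peak of 97 (chr1:154148591-154148677) without a site. TPM4 had a peak of 37 in a coding exon and a peak of 30 at the 5′UTR site shown above. MYH10, MYL9, TPM1 and CALD1 had no peak.

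The plakins and spectrins were the only role in which all genes, 5 of 5, had peaks of both mimics, 23 with miR-342-3p and 44 with miR-342-5p. Plectin, PLEC, had 25 peaks, more than any other gene described here. Its highest miR-342-3p peak scored 523, lay 8.93% along the coding sequence and had a 7mer-m8 at 8 nt from the summit. Its other 5 miR-342-3p peaks scored 10 to 34 and had no site. With miR-342-5p, 8 peaks fell in the PLEC 3′UTR, of which 7 adjoined each other over 949 nt with scores of 55, 57, 97, 137, 146, 288 and 408. None of the 8 had a 7mer or 8mer, and 5 had a 6mer within 50 nt of the summit. The peaks that scored 146 and 137 shared the same 6mer, which lay outside the latter. A further 7 miR-342-5p peaks of PLEC lay in alternative 5′ exons that are outside the canonical mRNA. The highest of these scored 170, and 4 of them had a 7mer or 8mer.

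MACF1, a plakin that links actin to microtubules, had 15 miR-342-5p and 4 miR-342-3p peaks. Of the former, 11 lay between chr1:39876672 and chr1:39880118, in an intron of the GENCODE basic transcripts. This region is an exon of another annotated transcript outside the basic set (chr1:39875175-39880149), and all 11 fell in its coding part. Their scores were 6 to 94, and 7 of them had a 7mer. In 5 of these the same CACCCCA recurred in a similar setting at short intervals, so that the sequences below are copies within 1 exon.

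MACF1 score 94, 7mer-A1 (chr1:39879712-39879741, plus strand): gcugcagugcuCACCCCAgaggaacucagu
MACF1 score 80, 7mer-A1 (chr1:39879868-39879897, plus strand): gcuucagugccCACCCCAgaggugccugcc
MACF1 score 18, 7mer-A1 (chr1:39879379-39879408, plus strand): ccugcagugccCACCCCAgaggaauccgcc
MACF1 score 15, 7mer-A1 (chr1:39879457-39879486, plus strand): gcugcagugccCACCCCAgcagaaucugcc
MACF1 score 6, 7mer-A1 (chr1:39879301-39879330, plus strand): gcugcagugccCACCCCAgaggagcccgcc

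The highest MACF1 peak scored 117 and lay on the GCACCCC site in the 3′UTR shown above. DST, the gene of dystonin, had 8 coding miR-342-3p peaks with scores of 7 to 39, spread from 18.1% to 96.5% of its coding sequence. None had a 7mer or 8mer, and 5 had GUGUGA within 50 nt of the summit, not always inside the peak. Yet the exons of DST contain 6 miR-342-3p 7mers, of which 0 lay under a peak. Its 3 miR-342-5p peaks scored 19, 56 and 82 and lay at 90% to 99.5%, and those of 56 and 82 had a 6mer. In the spectrins, SPTBN1 had a miR-342-5p peak of 208 (chr2:54858216-54858352) on the site shown above, 43.7% along the coding sequence, and a miR-342-3p peak of 124 (chr2:54880812-54880950) at 80.6%. The latter contained a 7mer-A1 that was more than 50 nt from its summit. SPTAN1 had a miR-342-5p peak of 88 in its 5′UTR with a GCACCCC site and 3 coding peaks of 18, 24 and 25, the last with miR-342-3p.

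**Figure D3:**
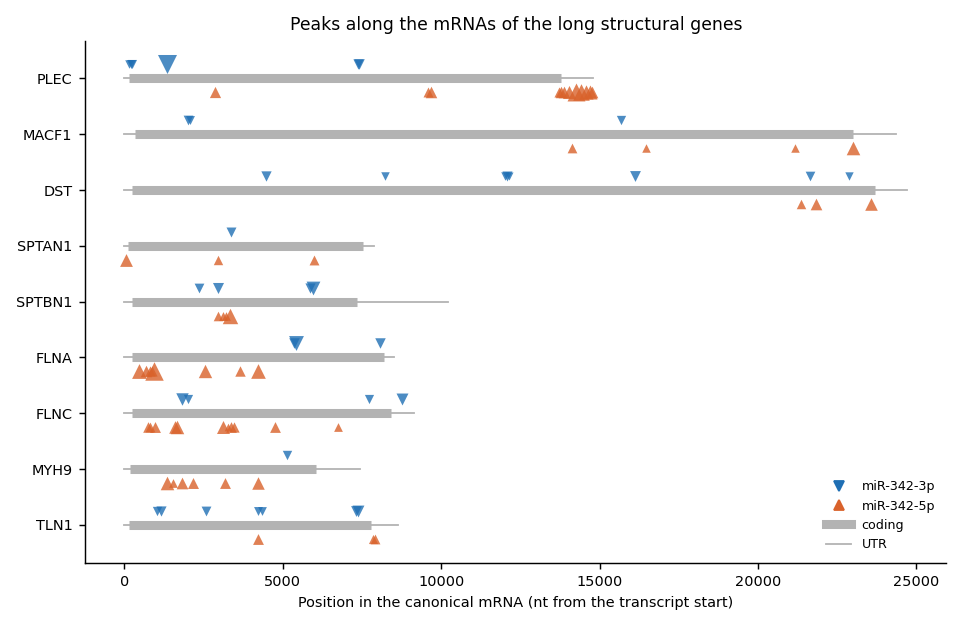
Position of the peaks along the canonical mRNA of 9 long genes, in nt from the transcript start, with miR-342-3p above and miR-342-5p below the line, coding sequence drawn thick and larger symbols for higher scores. Of 111 peaks in these genes 91 are drawn, since 20 lay outside the canonical mRNA (12 in MACF1, 7 in PLEC, 1 in FLNA). The PLEC 3′UTR holds 8 miR-342-5p peaks, and the FLNA peak that is not drawn, with a score of 240 for miR-342-3p, lay among the miR-342-5p peaks of that gene.

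Among adhesion proteins, talin (TLN1), which joins integrins to actin, had 7 coding miR-342-3p peaks with scores of 12 to 61. The highest had the GUGUGAG site shown above, and 2 others had GUGUGA within 50 nt of the summit. With miR-342-5p, TLN1 had peaks of 15 and 23 in the 3′UTR and of 39 in a coding exon. Zyxin (ZYX) had a coding miR-342-3p peak of 81 (chr7:143086975-143087070) with its summit 4 nt from a GUGUGAG, and 4 miR-342-5p peaks of 8, 15, 16 and 23. VASP had a coding miR-342-3p peak of 12. The VCL peak of miR-342-3p had a score of 6, lay in an intron on a GU run of 29 nt and has 436 near-copies, so its origin is uncertain. ENAH had no peak.

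Factors of assembly and turnover had 9 miR-342-3p and 13 miR-342-5p peaks. The formin DIAPH1 had a coding miR-342-3p peak of 155 (chr5:140908047-140908124) with the 8mer shown above, 8 nt from its summit. Profilin, PFN1, which feeds monomers to formins, had 3 adjoining miR-342-5p peaks in its 3′UTR with scores of 7, 69 and 189. Cofilin, CFL1, which severs filaments, had a 3′UTR miR-342-5p peak of 56 with a CACCCCA site 1 nt from its summit, but with 2 near-copies in the genome. CAPZB, a subunit of capping protein, had a coding miR-342-3p peak of 43 with a GUGUGA match. The branch stabiliser CTTN, the scaffold IQGAP1, the kinase ROCK1 and the formin DIAPH3 had peaks of at most 51, and 1 of them, the DIAPH3 peak of 15 with miR-342-5p, had a 7mer. The Arp2/3 subunits ARPC2 and ARPC5 and their activators WASL and WASF2 had none, nor did ROCK2 or the intermediate filament gene VIM.

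The miR-342-3p peaks were mostly coding. Coding exons held 52 of 66 of them (78.8%, CI 67.5–86.9%), while the share over that whole list was 55.5% (CI 53.9–57.2%). 3′UTRs held 3 of 66 (4.55%, CI 1.56–12.5%), in RDX, CTTN and FLNC, against 33.7% (CI 32.2–35.3%) of the list. For miR-342-5p, coding exons held 76 of 114 (66.7%, CI 57.6–74.7%, against 70% of the list) and 3′UTRs 21 of 114 (18.4%, CI 12.4–26.5%, against 17.4%). The 3′UTR share was thus 13.9 percentage points higher with miR-342-5p (two-sided Fisher's exact test, p = 0.011, adjusted p = 0.033 over 9 tests). Peaks of 1 gene are not independent, which this test does not take into account, and PLEC supplied 8 of the 21 peaks. Without PLEC the difference was 8.68 points (exact p = 0.11), and with neighbouring peaks joined it was 7.53 points (exact p = 0.24), neither of which passed the test. With only the highest peak of each gene, 1 of 24 against 7 of 25 lay in a 3′UTR (exact p = 0.049). The coding share was 12.1 points lower with miR-342-5p, a difference that did not pass the test (exact p = 0.091, adjusted p = 0.2). It was -16.4 points (exact p = 0.021) when any overlap with a coding exon or UTR, rather than the midpoint, placed a peak. Without PLEC the coding difference was -5.09 points (exact p = 0.58), and with every GENCODE transcript it was -2.47 points (exact p = 0.85). With neighbouring peaks joined it was -1.56 points. None of these latter values passed the test.

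**Figure D4:**
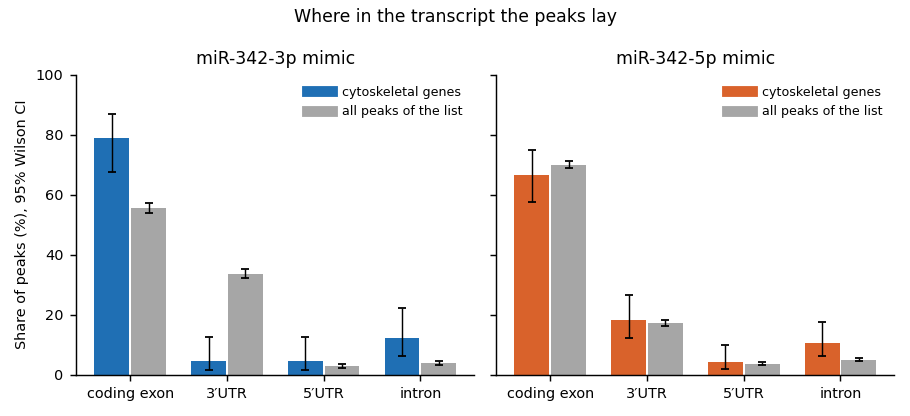
Share of peaks in coding exons, 3′UTRs, 5′UTRs and introns for the 45 genes (coloured) and for the whole list (grey), with 95% Wilson intervals. With miR-342-3p the 3′UTR share was 4.55% in these genes and 33.7% in the list, and with miR-342-5p it was 18.4% and 17.4%.

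The genes also differ from others in how much of their coding and 3′UTR length is 3′UTR. This share was 21.9% in the 24 genes bound with miR-342-3p and 49.7% in all protein-coding genes so bound. Per kilobase, the 24 genes had 0.387 coding and 0.0797 3′UTR peaks of miR-342-3p, while all genes with a peak had 0.356 and 0.218. For miR-342-5p the 25 genes had 0.554 coding and 0.701 3′UTR peaks per kilobase, while all genes had 0.645 and 0.186. This 3′UTR density counts each of 21 peaks, of which 8 lay in the PLEC 3′UTR of 1027 nt. With neighbouring peaks joined, 10 of 77 miR-342-5p regions lay in 3′UTRs. The part of length in the shares was not tested further.

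Seed sites were present in a minority of the peaks and on the strand of the peak. A 7mer or 8mer lay within 50 nt of the summit in 11 of 66 miR-342-3p peaks (16.7%, CI 9.57–27.4%). Read from the other strand, those windows gave 0 of 66, which allows a share of up to 4.55% taken as 3 counts of the total and up to 5.5% by the Wilson interval (two-sided exact McNemar test, p = 0.00098, adjusted p = 0.0044). For miR-342-5p, 29 of 114 peaks had a site (25.4%, CI 18.3–34.1%) against 1 of 114 from the other strand (p = 5.8e-08, adjusted p = 5.2e-07 by the same exact test). These tests also treat peaks of 1 gene as independent, which they are not. With only the highest peak of each gene, 5 of 24 miR-342-3p peaks had a site against 0 of 24 (exact McNemar p = 0.062). For miR-342-5p it was 10 of 25 against 0 of 25 (exact McNemar p = 0.002). The shares over the whole lists were 20.6% (CI 19.3–22%) and 33% (CI 31.7–34.3%). The sites were close to the summit, at a median distance of 7 nt for both mimics, and 9 of 11 and 22 of 29 were within 10 nt. The site share was 8.77 points higher with miR-342-5p, which did not pass the test (exact p = 0.2, adjusted p = 0.25), but the difference was 19.3 points when 6mers were counted (exact p = 0.0063). A 6mer alone was near 0 of 66 miR-342-3p summits and 12 of 114 miR-342-5p summits (10.5%, CI 6.12–17.5%), and over the whole lists the shares likewise differed, at 3.19% and 16%.

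The strongest kind of site was rare. An 8mer was found in 2 of 66 miR-342-3p peaks (3.03%, CI 0.835–10.4%), in DIAPH1 and in an intron of MACF1, against 8.26% of the list. It was found in 2 of 114 miR-342-5p peaks (1.75%, CI 0.482–6.17%), in ACTN4 and in a 5′ exon of PLEC, against 9.02%. In coding exons a 7mer or 8mer was near 4 of 52 summits (7.69%, CI 3.03–18.2%) for miR-342-3p and near 12 of 76 (15.8%, CI 9.27–25.6%) for miR-342-5p, against 16.3% and 27.6% of the coding peaks of the lists. In 3′UTRs, 1 of 3 and 6 of 21 (28.6%, CI 13.8–50%) did, against 23.6% and 42.9%.

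Peaks without a site had other matches near the summit in part. Among miR-342-3p peaks, 11 of 66 (16.7%) had no match to bases 2 to 7 but had GUGUGA within 50 nt of the summit. GUGUGA matches bases 3 to 8, and 1 of 66 had it in this way on the opposite strand. These 11 were in DST (5), TLN1 (2), MSN, CAPZB, CTTN and MACF1. The share in the list was 15.6%. For miR-342-5p, 5 of 114 peaks (4.39%) had GCACCC in this way, against 2 on the opposite strand and 4.49% of the list. Neighbouring peaks could share 1 such match, as a pair in FSCN1 and a pair in DST did. This kind of match was chosen after values had been seen. Examples from coding exons show it beside that of MSN.

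CAPZB score 43 (chr1:19712014-19712043, minus strand): ggauuaccuuuuGUGUGAcuacaacagaga
DST score 30 (chr6:56495089-56495118, minus strand): ugaaacuaaacuGUGUGAagaagaagcagu
TLN1 score 28 (chr9:35721725-35721754, minus strand): ucaccaaggaguGUGUGAugcgaguggaug

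An alternating run of G and U of at least 7 nt was present near 10 of 66 miR-342-3p summits (15.2%, CI 8.44–25.7%, against 24.8% of the list) and near 1 of 114 miR-342-5p summits (0.877%, against 1.3% of the list). With all of these set aside, 42 of 66 (63.6%, CI 51.6–74.2%) and 67 of 114 (58.8%, CI 49.6–67.4%) had no 6mer, no match to bases 3 to 8 and no GU run, against 49% and 46% of the lists. They included the FLNA peaks of 240 and 465, the MYL6 peak of 152 and the ACTG1 peak of 981.

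**Figure D5:**
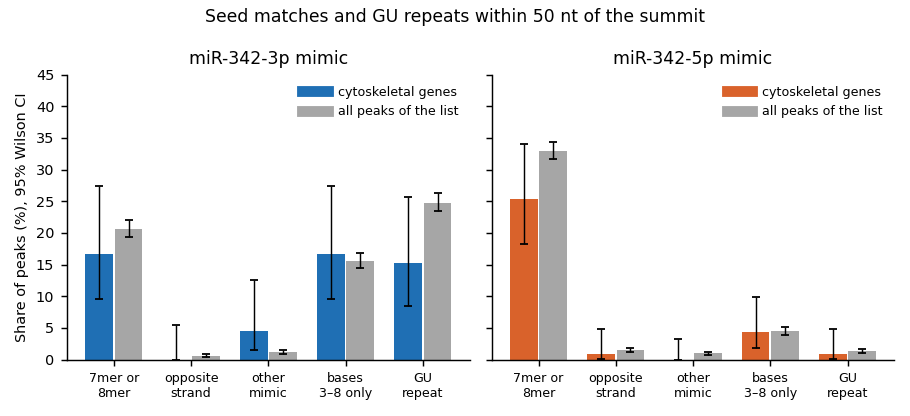
Share of peaks with a 7mer or 8mer of the mimic, the same on the opposite strand, a 7mer or 8mer of the other mimic, a match to bases 3 to 8 without bases 2 to 7, and a GU run of at least 7 nt, all within 50 nt of the summit, with 95% Wilson intervals. Coloured bars are the 45 genes and grey bars the whole list. In the 45 genes the own site was present in 16.7% and 25.4% of peaks and in 0% and 0.877% on the opposite strand.

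Conversely, most sites in the exons of the GENCODE basic transcripts of these genes had no peak. The MACF1 exon outside that set, with 7 matched miR-342-5p peaks, is not part of the counts that follow. The exons of the 32 genes with a peak contain 25 miR-342-3p 7mer or 8mer sites, of which 7 lay under a miR-342-3p peak (28%, CI 14.3–47.6%), and 55 miR-342-5p sites, of which 22 lay under a miR-342-5p peak (40%, CI 28.1–53.2%). PLEC (4 of 5), ZYX (3 of 4) and FLNC (3 of 5) had the most occupied miR-342-5p sites. Coding sites were occupied in 5 of 13 cases for miR-342-3p and 12 of 23 for miR-342-5p, and 3′UTR sites in 1 of 10 and 7 of 24. These differences did not pass two-sided Fisher's exact tests (p = 0.18 and p = 0.14, both 0.25 when adjusted). The single miR-342-3p 8mer lay under a peak, as did 2 of 5 miR-342-5p 8mers, compared with 6 of 24 and 20 of 50 7mers (exact p = 0.28 and p = 1, adjusted p = 0.31 and p = 1). With a single 8mer, 0.28 was the smallest p that the miR-342-3p test could give, so it could not have passed.

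Few positions were shared between the mimics, in these genes and in the lists. Of the miR-342-3p peaks, 5 of 66 (7.58%, CI 3.28–16.5%) overlapped 4 of the 114 miR-342-5p peaks (3.51%, CI 1.37–8.68%), all in coding exons. Over the whole lists, 76 of 3450 (2.2%) and 71 of 5010 (1.42%) overlapped a peak of the other mimic. In SPTBN1, a miR-342-3p peak of 43 (chr2:54857032-54857131) and a miR-342-5p peak of 20 (chr2:54857029-54857124) shared 93 nt. In CFL1, peaks of 64 (chr11:65623406-65623459) and 18 (chr11:65623406-65623430) shared 25 nt, and the former has 2 near-copies. In TLN1, peaks of 13 (chr9:35711012-35711063) and 39 (chr9:35711015-35711079) shared 49 nt. In IQGAP1, miR-342-3p peaks of 31 (chr15:91009509-91009581) and 16 (chr15:91009585-91009661) both overlapped a miR-342-5p peak of 10 (chr15:91009534-91009622). None of these peaks had a 6mer, 7mer or 8mer of its mimic. Since the lists were made over the same negative control libraries, such shared positions do not stand as independent of each other.

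Another 50 genes of the actin cytoskeleton, also listed with earlier results known, had 31 miR-342-3p and 60 miR-342-5p peaks. A miR-342-3p peak was present in 17 (34%), a miR-342-5p peak in 19 (38%) and both in 12 (24%), while 26 had none. CDC42, which encodes a GTPase that drives filopodia, had a 3′UTR miR-342-3p peak of 173 and PAK2, its effector kinase, one of 119, each with an 8mer. SSH1, the phosphatase that activates cofilin, had 14 miR-342-5p peaks, the highest of which scored 50 and had an 8mer in the 3′UTR. The adhesion adaptor PXN had a 3′UTR miR-342-3p peak of 553 without a site and 8 miR-342-5p peaks, and the Arp2/3 subunit ARPC3 had a coding miR-342-3p peak of 293 with a 7mer-A1. EVL is included in these counts for both mimics, although it is the host gene of MIR342 and its only peaks, of 6398 and 27731, lay on that hairpin.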

How the data were processed

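Ago-HITS-CLIP libraries of MDA-MB-231HM cells were mapped by the authors to hg19. The submitters' processing notes name cutadapt 1.13, TopHat2 2.0.13, UMI-tools and MACS2 2.1.1.20160309. The deposited unit is a whole-number score per peak, in 2 lists that merge the 3 libraries of each mimic, and how libraries were scaled is not given in the sources used here.

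The members and lists were chosen with earlier results of these data known. Peaks were placed by midpoint on GRCh37 with GENCODE release 44 basic transcripts, 3′UTR before coding exon, 5′UTR and intron, and 0 peaks passed the end of their chromosome. Named in full were the ERM peaks, the 10 highest peaks per list, 3′UTR 8mers and overlaps between lists. A few items under this rule are not reported here. Other peaks, and FLNC along its mRNA, were named after their values were seen. Near-copies were found with blastn 2.17.0 (50 nt, at least 95% identity over 90%). Tests were two-sided Fisher's exact and exact McNemar tests (scipy 1.17.1), adjusted by Benjamini-Hochberg over 9 tests. Python 3.11.15, pysam 0.24.0, samtools 1.23.1 and matplotlib 3.10.9 were used. The site search, tested on simulated data, found 3000 of 3000 planted sites. Alternatives numbered 78, with 9 added after the data were seen.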

Additional observations from a re-analysis of the deposited data

How the results depend on the processing

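Of 87 alternative values for 14 results, 71 kept their direction and their side of the threshold, or stayed within 1.5 times of the count. With scores above 50 only, 16 miR-342-3p and 41 miR-342-5p peaks in 12 and 15 genes remained, 0 overlapped between the lists, the miR-342-3p excess of sites over the opposite strand was 31.2 points (exact p = 0.062), and the occupancy of miR-342-5p sites became 3.26 points higher in 3′UTRs than in coding exons. With the highest peak of each gene, the miR-342-3p excess was 20.8 points (exact p = 0.062). With 8mers alone, the excesses were 3.03 and 1.75 points (both exact p = 0.5), and the difference in site share between the mimics was -1.28 points (exact p = 0.62). With 6mers that difference was 19.3 points (exact p = 0.0063). The 3′UTR difference was 8.68 points without PLEC and 7.53 with neighbouring peaks joined, an alternative added after the data were seen. The coding difference was -16.4 points (exact p = 0.021) when any overlap placed a peak, but -5.09 points (exact p = 0.58) without PLEC. Midpoints within 25 nt were found for 3 miR-342-3p peaks. With every GENCODE transcript, also added later, 87 of 114 miR-342-5p peaks were coding, and the coding difference was -2.47 points (exact p = 0.85). No paired analysis was possible because the lists merge the replicates. Leaving out a replicate was not possible for the same reason. Depth, replicate spread and mRNA level were unknown, so absence of a peak sets no limit on binding.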

Other observations

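The peaks of the 45 genes had a median GC content of 53.1% with miR-342-3p and 62.1% with miR-342-5p, against 50.8% and 59.8% in the lists, and median widths of 66 and 84.5 nt. Seed-matched miR-342-5p peaks had a median score of 56 (n = 29) and those without a 6mer, 7mer or 8mer a median of 25 (n = 73). For miR-342-3p these medians were 30 (n = 11) and 27 (n = 55). A 7mer or 8mer of the other mimic lay near 3 of 66 miR-342-3p summits (4.55%, CI 1.56–12.5%), in MYH9, PLEC and TLN1, against 1.16% of the list. It lay near 0 of 114 miR-342-5p summits, against 0.978% of the list. A count of 0 of 114 allows a share of up to 2.63% taken as 3 counts of the total and up to 3.26% by the Wilson interval. Near-copies elsewhere in the genome were found for 14 of the 180 peaks, in 9 genes (MSN, RDX, ACTB, ACTN4, FSCN1, PLEC, MACF1, VCL and CFL1).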
